A study of Mus musculus with 6 samples.

Results

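Retained-intron transcripts are RNAs of otherwise spliced genes in which the annotation keeps an intron, or a piece of one, inside an exon. Here they were followed in Th17 cells of the mouse, helper T cells known for making interleukin 17. Members were chosen by their measured level: transcripts typed retained_intron that reached 1 FPKM or more in at least 3 of 6 libraries. FPKM counts sequenced fragments per length of transcript and per size of library. This rule kept 1836 of the 17774 transcripts of that type, out of 73900 transcripts of all types, and the members came from 1313 genes. Since the members were selected on these FPKM values, their abundance is a description and was not tested.

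The study compared Th17 cells in which Sirt2, a NAD-dependent protein deacetylase, had been disrupted with CRISPR/Cas9 (Sirt2 KO, 3 libraries) with control Th17 cells (Sirt2 WT, 3 libraries). Cells of all 6 libraries were stimulated for 72 hours with antibodies to CD3 (0.5 μg/mL) and CD28 (1 μg/mL), although a label calls them untreated, and total RNA was sequenced in bulk. The labels give no strain, age, sex, guide or selection of edited cells, and nothing in them tells whether replicates were separate cultures or animals. The p-values therefore rest on how these libraries vary, and that variation may be technical alone. In the order of replicates 1, 2 and 3, used throughout, Sirt2 itself was at 11.2, 13.5 and 10.9 FPKM in KO and 20.7, 19.9 and 21.9 FPKM in WT, lower in every KO library but not absent. Its 5 transcripts typed retained_intron all stayed under 1 FPKM and are not members.

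Most introns are removed while the RNA is being made. A transcript that keeps one is often held in the nucleus, or, once exported, destroyed by nonsense-mediated decay, the quality control that removes RNAs with an early stop codon. In many cell types, T cells included, retention is known in genes of the splicing machinery itself, where SR proteins and their kinases tune their own output.

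Th17 identity was visible in each library. The 8 T cell markers summed to between 899 and 968 FPKM in KO and between 862 and 899 FPKM in WT, and 10 of 10 Th17 markers averaged 1 FPKM or more. Those 10 summed to 373, 531 and 432 FPKM in KO and 522, 535 and 546 FPKM in WT, with KO replicates 1 and 3 below every WT library. Some marker groups of other cells differed between the groups. The 10 myeloid markers reached 39.7 to 40.0 FPKM together in KO against 30.1 to 31.2 FPKM in WT, with 6 of them higher in every KO library. The 6 cytotoxic markers reached 21.6 to 27.5 FPKM in KO against 7.69 to 8.90 FPKM in WT, with 4 higher in every KO library, and the 5 B cell markers to 22.7 to 27.4 and 19.1 to 19.7 FPKM. The tables hold no counts, so depth is unknown.

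Of the 1836 members, 1821 had identical coordinates and strand in the GENCODE M21 annotation of GRCm38 and were compared base by base with protein-coding exons of their gene. A whole intron of a protein-coding transcript lay inside a single exon of 1067 members. Of these, 715 kept 1 intron, 236 kept 2 and 116 kept 3 or more, up to 10. Another 696 held only part of an intron or other bases outside protein-coding exons, 51 came from genes with no protein-coding transcript, and 7 lay wholly inside protein-coding exons. The typical member with a protein-coding model had a median of 445.5 bases, 37.0% of its length, that no protein-coding exon covers.

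The following sequences show what such members keep. They come from the GENCODE M21 transcripts (GRCm38), are written 5′ to 3′ on the gene's strand, and hold only bases between coding exons. Capitals mark the bases at the splice sites. The first pair are short introns of the most abundant members, Eef1a1 (intron 5 of 7, chr9:78479535-78479623, minus strand, 89 bases) and Rpl7 (intron 2 of 6, chr1:16103335-16103509, minus strand, 175 bases).
Eef1a1 intron 5: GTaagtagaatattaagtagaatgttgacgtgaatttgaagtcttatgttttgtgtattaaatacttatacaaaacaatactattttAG
Rpl7 intron 2: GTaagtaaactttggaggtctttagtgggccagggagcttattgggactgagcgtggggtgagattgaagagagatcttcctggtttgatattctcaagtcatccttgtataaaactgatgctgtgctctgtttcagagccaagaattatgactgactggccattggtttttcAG
Both begin with GTAAG, the pairing partner of U1 small nuclear RNA, and end in AG. Read in frame from the upstream exon, the Eef1a1 intron reaches a stop codon at base 6 and the Rpl7 intron at base 49.

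The next 4 introns belong to members that were lower in every KO library and are described further on. They are Twf2 intron 5 of 8 (chr9:106212837-106212937, plus strand, 101 bases), Hdac6 intron 13 of 28 (chrX:7939533-7939605, minus strand, 73 bases), Taf1c intron 14 of 14 (chr8:119599504-119599580, minus strand, 77 bases) and Rab4b intron 2 of 7 (chr7:27175894-27176157, minus strand, 264 bases).
Twf2 intron 5: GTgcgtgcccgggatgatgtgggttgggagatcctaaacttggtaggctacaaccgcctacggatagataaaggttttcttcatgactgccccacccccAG
Hdac6 intron 13: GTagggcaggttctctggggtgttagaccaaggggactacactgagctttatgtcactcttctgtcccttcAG
Taf1c intron 14: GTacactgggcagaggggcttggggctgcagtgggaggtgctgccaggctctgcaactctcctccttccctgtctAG
Rab4b intron 2: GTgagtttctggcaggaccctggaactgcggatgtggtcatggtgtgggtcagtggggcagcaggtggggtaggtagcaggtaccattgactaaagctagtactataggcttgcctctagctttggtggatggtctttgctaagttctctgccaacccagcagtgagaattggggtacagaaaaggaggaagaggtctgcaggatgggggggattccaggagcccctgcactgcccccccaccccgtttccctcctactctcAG
The Twf2 intron holds no in-frame stop codon and its length is not a multiple of 3. The other introns reach one, at base 43 in Hdac6, 75 in Taf1c and 75 in Rab4b.

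Cdk5rap1 gave the member with the smallest p, and it keeps no whole intron. Its first exon starts 134 bases before a coding exon (chr2:154354211-154354344, minus strand) and its last exon runs 296 bases past another (chr2:154350522-154350817, minus strand). Capitals mark the AG that ends the upstream intron and the GT that begins the downstream one.
Cdk5rap1 bases before the first shared exon: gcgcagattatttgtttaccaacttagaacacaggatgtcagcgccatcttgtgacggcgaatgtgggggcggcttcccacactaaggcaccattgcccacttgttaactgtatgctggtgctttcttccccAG
Cdk5rap1 bases after the last shared exon: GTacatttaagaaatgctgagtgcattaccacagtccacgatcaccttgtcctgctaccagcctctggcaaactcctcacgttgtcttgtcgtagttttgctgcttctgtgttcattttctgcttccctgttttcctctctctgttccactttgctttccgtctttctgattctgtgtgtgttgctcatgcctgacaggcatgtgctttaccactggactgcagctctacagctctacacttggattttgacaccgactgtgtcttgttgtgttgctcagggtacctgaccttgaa

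Across all members, 1496 distinct introns were kept whole. They were short, with a median length of 251.5 bases (quartiles 111.8 and 590), against a median of 815 bases for the 13763 other introns of the same genes. Introns under 300 bases made up 56.3% of the retained set and 28.3% of the others. A retained intron had to lie wholly inside an exon of a member, which by itself favours short introns. The contrast in length with the other introns is thus partly built into the definition, and how much of it remains was not tested. Introns of the members were about as short as those of transcripts that did not reach the level. The 4118 introns kept in retained_intron transcripts that did not pass the rule, in genes with an expressed protein-coding transcript, had a median of 259 bases and 53.8% under 300. The median GC content was 51.6% in the introns of members and 50.5% in those of transcripts that did not pass. Of the retained introns, 12.4% were the first and 10.9% the last intron of their transcript, against 16.5% and 12.4% of the others.

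**Figure D1:**
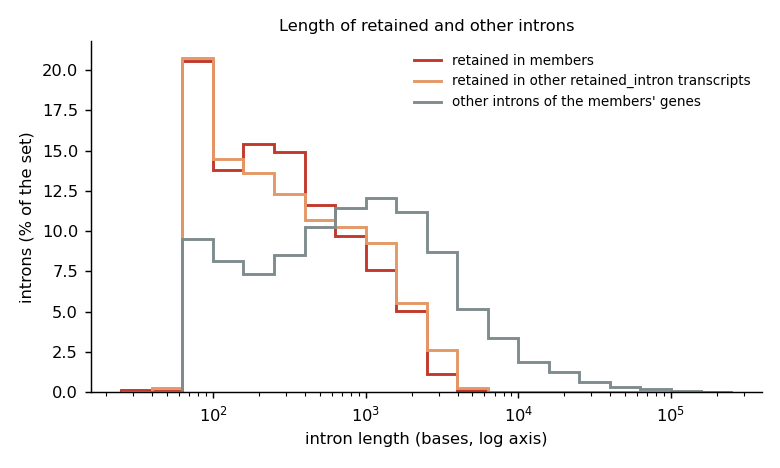
Length of introns (x axis, bases, log scale) as a percentage of each set (y axis), for the 1496 introns kept whole in members, the 4118 kept in retained_intron transcripts under the level rule, and the 13763 other introns of the members' genes. Both retained sets peak below 100 bases and the other introns near 1000 bases.

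Splice sites were of the common kind in nearly all retained introns. GT and AG ended 1456 of the 1496 (97.3%, against 98.6% of the 4118 in transcripts that did not pass), and GC and AG ended 24 (1.604%, against 0.971%). Introns beginning GTAAG made up 21.1% and those beginning GTGAG 28.8%, against 22.4% and 28.3%. Of the 1394 retained introns that lie between coding exons, 1247 (89.5%) carried a stop codon in the reading frame of the upstream exon, at a median of base 34. The share was 88.1% in the transcripts that did not pass. Only 45 introns of members had no stop and a length divisible by 3, which would leave the frame open.

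A small set had the start of the minor, U12-type introns, which a separate spliceosome removes. The letters GTATCCTT or ATATCCTT were searched at the first 8 bases of each intron on the gene's strand, where the pair cannot overlap. The first opened 10 retained introns (0.668%) and the second 4 (0.267%), against 0.291% and 0.121% of the 4118 introns in transcripts that did not pass. These 14 introns lie in 16 members of 14 genes, named here after their values were seen. Among the genes are Prim1 (small subunit of DNA primase), Polr2e (a shared RNA polymerase subunit), Spc24 (a kinetochore protein), Cnep1r1 (partner of a nuclear envelope phosphatase), Exosc5 (RNA exosome), Rfc5 and E2f6. The ends of 3 of them show the motif in capitals at the start, and the last dinucleotide in capitals at the end.
Prim1 intron 7 of 12 (chr10:128022973-128023579, plus strand, 607 bases), start: ATATCCTTtcct
Prim1 intron 7, end: catgctccttaatgaagcAT
Spc24 intron 2 of 4 (chr9:21757395-21757684, minus strand, 290 bases), start: ATATCCTTtgct
Spc24 intron 2, end: ttggccttaacccagtgcAC
Polr2e intron 4 of 6 (chr10:80036843-80036914, minus strand, 72 bases), start: GTATCCTTtact
Polr2e intron 4, end: tgcttccttgactgttctAG
Spc24 shows the AT and AC ends that mark part of this class, and Prim1 ends in AT.

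Members were minor products of their genes. Their mean level over the 6 libraries had a median of 2.13 FPKM (quartiles 1.33 and 4.27), against 11.4 FPKM (4.09 and 37.3) for the 2355 protein-coding transcripts of the same genes that passed the same rule. Measured as a share of the gene's summed transcript FPKM, a member held a median of 5.89% (1.75% and 15.2%). In 658 of the 1274 genes whose protein-coding transcripts averaged 1 FPKM or more, all members together stayed under 10%. They reached 50% or more on average in 50 of these genes, and in all 6 libraries in 20. A mean of 10 FPKM or more was reached by 195 members and 100 FPKM by 14.

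**Figure D2:**
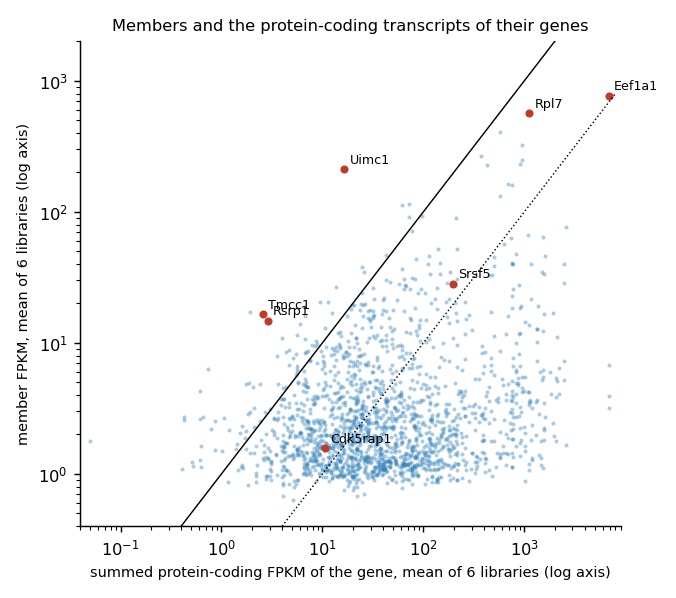
Mean FPKM of each member over 6 libraries (y axis, log scale) against the summed FPKM of its gene's protein-coding transcripts (x axis, log scale), with the line of equality (solid) and of a lower level, parallel to it (dotted). Most members lie under the solid line, and 89 exceeded the coding sum in all 6 libraries; 7 genes of the text are marked in red, each by its most abundant member.

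Members also had fewer exons. Their median was 4 exons, against 9 in the most abundant protein-coding transcript of the gene. Of the 1778 members whose gene has a protein-coding transcript, 1709 had fewer exons, 55 as many and 14 more. Length differed less, with a median of 1553 against 2122 bases, and 738 of the 1778 were longer than that transcript. A single exon made up 90 members.

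Translation genes had abundant members. The Eef1a1 member (ENSMUST00000144523), of the elongation factor that brings tRNA to the ribosome, was at 499, 618 and 1007 FPKM in KO and 740, 726 and 1025 FPKM in WT. That was 9.90% of the gene on average, and the groups overlapped. The Rpl7 member (ENSMUST00000125005), of a large-subunit ribosomal protein, was close in all libraries, at 534, 581 and 563 FPKM in KO and 561, 566 and 588 FPKM in WT, 33.4% of its gene. The Hspa8 member, of a constitutive heat shock chaperone, keeps 5 introns and was at 197, 213 and 248 FPKM in KO and 241, 228 and 258 FPKM in WT. Its exons overlap small nucleolar RNA genes on the same strand, which the values cannot separate.

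In a few genes a member was the main product. The Uimc1 member (ENSMUST00000128641), of a gene whose protein brings BRCA1 to ubiquitin at broken DNA, was at 241, 233 and 182 FPKM in KO and 210, 227 and 181 FPKM in WT, 91.3% of its gene. It has 2 exons and 654 bases, 498 of them outside protein-coding exons, and overlaps the processed pseudogene Gm6344 on the other strand. Strand use in the counting is not stated, so reads of the pair cannot be told apart. The Tmcc1 member, a single exon of 2697 bases at 14.5 to 18.6 FPKM, held 86.3% and overlaps the pseudogene Gm8203 in the same way. The Pkp3 member held 88.0%, the Podnl1 member 71.4%, the Tmed7 member 70.6% and the Fam120b member 70.2%, each with overlapping groups. Exons of another gene were overlapped by 500 of the 1821 members placed on the annotation, 216 on the same and 323 on the opposite strand.

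Some genes had many members. Gas5, a noncoding host of small nucleolar RNAs, had 12, which summed to 73.9, 71.3 and 54.6 FPKM in KO and 81.8, 73.2 and 77.0 FPKM in WT. Snhg5, another such host, had 8, at 18.1, 14.5 and 29.8 FPKM in KO and 30.1, 31.3 and 25.2 FPKM in WT. Aup1, Rpl10a and Snhg1 had 7 each. Across all genes with a member, 976 had 1, 229 had 2 and 108 had 3 or more.

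At the edge of the rule, membership turned on whether 3 values reached 1 FPKM. Just inside were Arnt (0.248 to 1.31 FPKM over the 6 libraries), Mrpl15 (0.640 to 1.20 FPKM) and Rfxank (0.284 to 2.26 FPKM). Just outside were Furin (0.588 to 1.24 FPKM), Aftph (0.390 to 1.51 FPKM) and Fbxw2 (0.657 to 1.404 FPKM). All 6 libraries reached 1 FPKM in 980 members, 5 in 281, 4 in 306 and 3 in 269. In 33 members only the 3 WT libraries did and in 7 only the 3 KO libraries, so counts over members partly follow from the rule.

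The comparison of KO with WT asked whether retained-intron transcripts, or their use relative to the coding transcripts of the gene, differed when Sirt2 was disrupted. Members as a whole were slightly lower in KO, and no single member passed the test. By limma on log2(FPKM + 1), fitted on all 19184 transcripts that passed the same rule, 0 of 1836 members had an adjusted p under 0.05, where the background was 0.0417% of all transcripts tested (8 transcripts). Relative to the summed protein-coding FPKM of the gene, a quantity called usage here, 0 of 1757 members passed in limma, with a background of 0.054%. At an unadjusted p under 0.05, limma gave 159 members at the level, where the background was 5.57%. Of these, 129 were lower in KO (background 3.15%) and 30 higher (background 2.42%). For usage it gave 72 members (background 5.2%), 55 lower (2.94%) and 17 higher (2.27%). The 55 became 31 without KO replicate 2 or WT replicate 1 and 98 without KO replicate 3, and the 129 at the level became 76 without KO replicate 1, 63 without WT replicate 1 and 220 without KO replicate 3.

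The shift was small and on the lower side. The log2 difference was below 0 in 1246 members (67.9%), with a background of 55.5%, and its median was -0.15 against -0.03 over all transcripts tested. Protein-coding transcripts of the same genes had a median of 0.02, and 47.1% of them were below 0. The usage difference was below 0 in 1200 of 1757 members, with a background of 54%, and had a median of -0.16 against -0.04. Much of that background is protein-coding transcripts, each set against the other coding transcripts of its gene, so their values offset each other. Usage was below 0 in 62.6% of transcripts typed processed_transcript (median -0.12) and in 58.0% of those typed nonsense_mediated_decay (median -0.10). Every KO library lay below every WT library in 219 members (11.9%; background 6.36%) and above in 52 (2.83%; background 4.71%). Relative to the WT mean, the members' median difference was -0.16, -0.16 and -0.09 in KO replicates 1 to 3. Each WT library against the other WT libraries gave 0.09, -0.08 and 0.01, so KO replicate 3 lay close to the lowest WT library. Over members, KO replicate 3 also correlated more with WT replicates 1 to 3 (Pearson r of 0.850, 0.869 and 0.830) than with KO replicates 1 and 2 (0.802 and 0.807). KO replicates 1 and 2 correlated at 0.840. Among the 980 members at 1 FPKM in all 6 libraries, which no group alone brought in, 653 (66.6%) were below 0 and the median was -0.12. Where all libraries were scaled to a common median the members' median was -0.11 and that of all transcripts 0.03, so the members' side of 0 stayed and that of all transcripts turned.

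As a share of all transcript FPKM, members took 2.44%, 2.51% and 2.69% in KO and 2.81%, 2.72% and 2.70% in WT. The means were 2.55% ± 0.128 and 2.74% ± 0.0587 (SD, n = 3 libraries each), a difference of -0.197 percentage points. The groups did not overlap, but the gap between the closest libraries was small, and 3 against 3 libraries cannot give an exact two-sided permutation p below 0.1. All 17774 annotated retained-intron transcripts together took 2.89%, 2.93% and 3.24% in KO and 3.44%, 3.28% and 3.25% in WT. Of these, 1604, 1573 and 1793 reached 1 FPKM in the KO libraries and 2043, 1856 and 1892 in the WT libraries. The median over genes of the members' share of their gene was 7.35%, 7.36% and 8.88% in KO and 10.04%, 8.69% and 9.68% in WT, and here the groups overlapped.

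**Figure D3:**
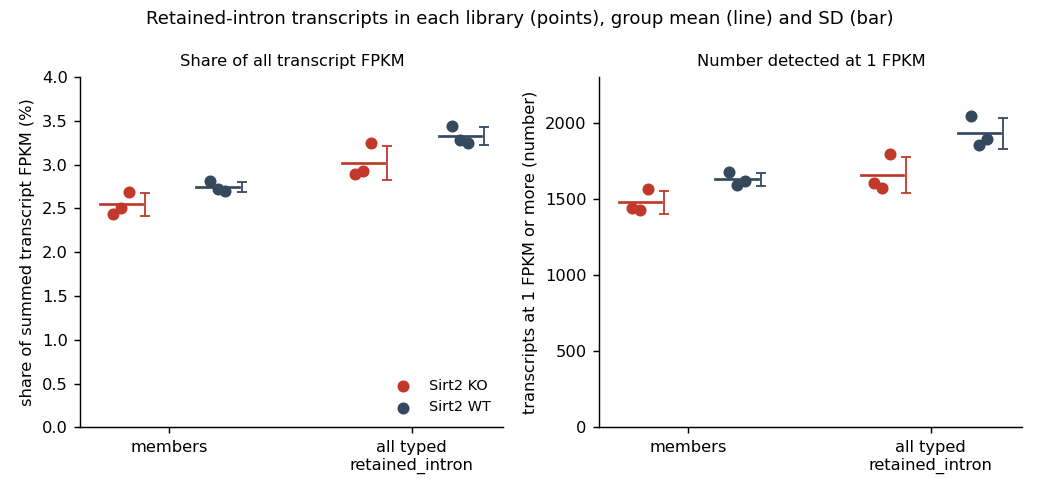
Left, share of summed transcript FPKM (y axis, percent) held by the 1836 members and by all transcripts typed retained_intron; right, how many reached 1 FPKM (y axis, number), with 3 KO and 3 WT libraries as points, the mean as a line and the SD as a bar. KO replicate 3, the highest KO point, lies next to the WT libraries in each.

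Other features lay on the same side. Malat1, a long noncoding RNA that stays in the nucleus, was at 2.44, 1.69 and 3.32 FPKM in KO and 4.51, 3.47 and 3.796 FPKM in WT, and Neat1 at 0.609, 0.552 and 1.19 FPKM and 1.31, 1.02 and 1.05 FPKM. The groups overlapped for Neat1 but not for Malat1. The 5 nuclear RNAs listed reached 2.26 to 4.52 FPKM in KO against 4.50 to 5.84 FPKM in WT, nearly all of it Malat1 and Neat1. Transcripts typed nonsense_mediated_decay had a median difference of -0.14, -0.06 and -0.02 in the KO libraries. Their share of all transcript FPKM was 1.66%, 1.69% and 1.76% in KO and 1.90%, 2.04% and 1.98% in WT, without overlap. Every KO library lay below every WT library in 8.26% of those tested and above in 2.91% (backgrounds 6.36% and 4.71%). For transcripts typed processed_transcript it was 8.53% and 4.19%. Across members, the difference correlated with transcript length at a Spearman rho of -0.13, -0.08 and 0.06 in KO replicates 1 to 3 (n = 1836 members, which share libraries). Within each of 4 length classes the members' median was below 0 in all 3 KO libraries. The part of the nuclear RNAs and of the myeloid and cytotoxic markers in the difference was not tested. In bulk RNA, fewer cells of a type and less of the transcript per cell cannot be told apart.

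Splicing genes, like some other gene lists, were rich in members. At the gene level, 16 of 22 expressed SR proteins and partners had a member, as did 5 of 9 CDC2-like and SR protein kinases, 11 of 25 hnRNPs and RNA helicases and 16 of 39 core spliceosome genes, against 12.04% of all 10873 expressed genes. Other lists had like shares, among them 59 of 80 ribosomal protein, 8 of 16 glycolysis, 13 of 30 cell cycle and 12 of 32 translation factor genes. Shares were lower, from 7.69% to 26.7%, in the T cell, cytokine, sirtuin and nonsense-mediated decay lists. Gene level was not matched in this comparison. The 86 members of the 4 splicing lists lay below 0 in 78 cases. Their median was -0.35 at the level and -0.33 in usage, beside -0.03 and -0.04 over all transcripts tested. Without KO replicate 2 the median in usage was -0.20. None of the 86 passed the test. At an unadjusted p under 0.05 in limma, 17 were lower (background 3.15%) and 1 higher (background 2.42%). In 20 (23.3%, background 6.36%) every KO library was below every WT library, and in 1 (1.16%, background 4.71%) above. Some of the 20, such as the Rbm17 member and a Luc7l2 member, reached 1 FPKM in the WT libraries only. Counts without overlap in these lists thus partly follow from the rule. Among the 52 at 1 FPKM in all 6 libraries, 46 were below 0 (88.5%, background 54.4%), with a median of -0.32 against -0.02. The 86 members come from 48 genes and several share a gene, so they are not independent cases. The summed protein-coding FPKM of these 48 genes had a median difference of -0.01, with 25 genes below 0.

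SR proteins, which bind exonic enhancers and recruit the spliceosome, had the lowest median of the 4 splicing lists. Of their 28 members 26 were below 0, the median was -0.46, and 7 (25%, background 6.36%) were lower in every KO library. Without KO replicate 2 the median was -0.30. By library the median was -0.48, -0.58 and -0.23 in KO, while WT gave 0.32, -0.25 and -0.10. WT replicate 1 thus stood above the other WT libraries, and WT replicate 2 below KO replicate 3. The Srsf5 member (ENSMUST00000153056), which keeps intron 6 of 8 with a stop at base 7, was at 27.4, 24.99 and 19.9 FPKM in KO and 38.1, 29.6 and 29.9 FPKM in WT. Its log2 difference was -0.42 ± 0.16 (SE, n = 3 a group; limma adjusted p = 0.874), without overlap between the groups. Protein-coding Srsf5 was at 190 to 221 FPKM in KO against 186 to 201 FPKM in WT.

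The Rsrp1 member, the main product of a gene for an arginine- and serine-rich protein at 67.2% of its FPKM, was at 11.4, 10.6 and 12.9 FPKM in KO and 20.4, 14.2 and 19.0 FPKM in WT (-0.56 ± 0.16, limma adjusted p = 0.767). Every KO library was below every WT library. The Srsf3 member, which keeps introns 3 and 4 of 5, was at 10.9, 8.27 and 16.8 FPKM in KO and 20.8, 12.9 and 15.8 FPKM in WT, and the groups overlapped. The Srsf2 member, at 12.9 to 15.4 FPKM in KO against 13.6 to 17.1 FPKM in WT, overlapped too. Srsf11, named after its values were seen, had a member at 0.871, 0.628 and 1.36 FPKM in KO and 3.54, 2.002 and 2.84 FPKM in WT.

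CDC2-like kinases phosphorylate SR proteins and release them from nuclear speckles. The Clk1 member (ENSMUST00000156931) keeps introns 3 and 4 of 12, which flank the exon that the gene is known to skip or retain. It was at 0.670, 0.958 and 2.49 FPKM in KO and 3.26, 2.59 and 7.80 FPKM in WT, every KO library below every WT library by a narrow gap (-1.19 ± 0.44, limma adjusted p = 0.873). The protein-coding Clk1 sum was at 27.7, 42.9 and 30.3 FPKM in KO and 35.3, 34.2 and 23.3 FPKM in WT. The most abundant Clk2 and Clk3 members overlapped between groups, at 3.75 to 5.46 and 3.19 to 6.28 FPKM for Clk2 and 8.10 to 9.64 and 4.39 to 11.1 FPKM for Clk3. The Srpk1 member held 63.0% of its gene, at 21.0, 28.8 and 24.7 FPKM in KO and 31.97, 29.9 and 25.1 FPKM in WT.

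Among hnRNPs and RNA helicases, 19 of 23 members were below 0 with a median of -0.25. The Ddx39b member, of an RNA helicase in splicing and export, was at 40.3, 37.6 and 53.5 FPKM in KO and 61.8, 55.7 and 60.7 FPKM in WT (-0.44 ± 0.14, limma adjusted p = 0.822). No KO library reached a WT library. In the spliceosome core, 27 of 28 members were below 0, with a median of -0.30. Leaving out 1 library gave medians from -0.49 (KO replicate 3) to -0.23 (KO replicate 2), with 24 below 0 in both cases. Over the 13 members at 1 FPKM in all 6 libraries the median was -0.20. In 5 of the 28 (17.9%, background 6.36%) every KO library was below every WT library. The Rbm5 member, at 4.46, 3.596 and 8.11 FPKM in KO and 7.19, 6.90 and 7.61 FPKM in WT, overlapped between the groups because KO replicate 3 was its highest library.

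**Figure D4:**
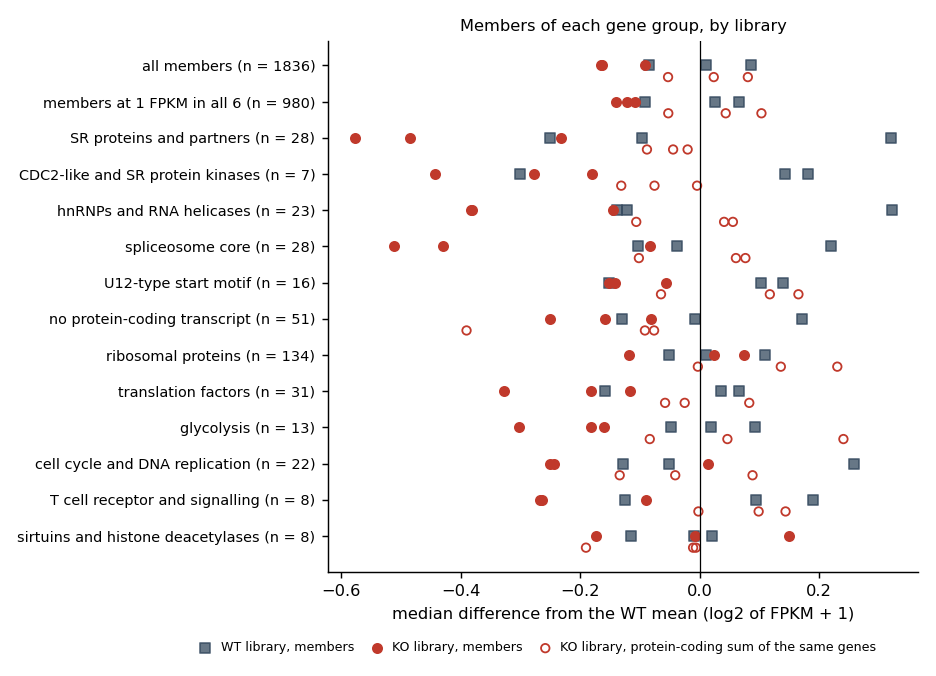
Median difference from the WT mean on log2(FPKM + 1) (x axis) over the members of each gene group (rows, n = members) in each KO library (red circles) and in each WT library against the other WT libraries (squares), with the protein-coding sum of the same genes in the KO libraries (open circles). In the SR proteins the KO libraries lie between -0.58 and -0.23 and the WT libraries between -0.25 and 0.32, and open circles stay near 0 in most rows.

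Other gene groups varied in how far they lay from 0. Ribosomal protein genes had the most members, 134 in 59 of 80 genes, with a median of -0.04 and 74 below 0. Without overlap, 6 were lower and 6 higher in KO (4.48% each, backgrounds 6.36% and 4.71%). In usage 97 of the 134 were below 0, and the protein-coding sums of the same genes had a median of 0.12. Translation factors had 26 of 31 members below 0 with a median of -0.26, and glycolysis genes 11 of 13 with -0.24. For cell cycle genes it was 16 of 22 with -0.15, and for T cell receptor signalling genes 6 of 8 with -0.25. Sirtuins and histone deacetylases had 4 of 8 below 0, with a median of 0.01. The Sirt7 member held 54.9% of its gene, at 10.7, 12.7 and 15.9 FPKM in KO and 14.5, 14.7 and 15.6 FPKM in WT.

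Members also occurred among genes that define T cell function. Of 26 expressed T cell transcription factors 2 had one (7.69%, beside 12.04% of all expressed genes), Satb1 among them. The Satb1 member, of a protein that organises chromatin in T cells, was at 2.31, 1.87 and 3.87 FPKM in KO and 2.96, 3.95 and 2.56 FPKM in WT, 1.68% of its gene, and the groups overlapped. Of 29 expressed cytokine and receptor genes 5 had a member (17.2%), with 4 of 5 below 0 and a median of -0.32, and of 28 T cell receptor and signalling genes 6 did (21.4%). The Il17ra member, of a receptor subunit for interleukin 17, was at 1.46, 1.59 and 12.04 FPKM in KO and 11.1, 5.96 and 8.19 FPKM in WT. KO replicate 3 was the highest of all 6 there and the other KO libraries the lowest. The Ptprc member, of the phosphatase CD45, was at 9.26, 25.8 and 15.6 FPKM in KO and 21.2, 26.1 and 24.8 FPKM in WT. Mat2a and Ogt, whose introns are known to be retained or removed with the supply of methionine and of sugar nucleotides, had 1 member each, with a median of -0.60. The Mat2a member was at 1.10, 0.506 and 1.87 FPKM in KO and 2.20, 2.59 and 1.66 FPKM in WT, and the Ogt member at 1.36, 0.379 and 3.58 FPKM and 3.24, 2.81 and 2.34 FPKM.

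In the genes with a U12-type start, 12 of 16 members were below 0, with a median of -0.15, equal to that of all members. The Prim1 member was at 4.56, 3.32 and 4.91 FPKM in KO and 8.32, 6.59 and 7.85 FPKM in WT (-0.71, limma adjusted p = 0.642), every KO library below every WT library. It keeps the neighbouring intron 6 as well, which starts with GT. The Cnep1r1 member was at 1.38, 0.399 and 0.512 FPKM in KO and 1.96, 1.397 and 2.90 FPKM in WT, again without overlap but by a narrow gap. The most abundant Polr2e member was at 31.7, 27.8 and 20.2 FPKM in KO and 24.6, 30.7 and 33.0 FPKM in WT.

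The members with the smallest p in limma were higher or lower in every KO library, and none passed. Of those higher in KO, the Cdk5rap1 and Sft2d1 members reached 1 FPKM in the KO libraries only. The level rule thus kept these members through the group where they were high, and their p-values are not independent of that selection. The Cdk5rap1 member (ENSMUST00000152180), of an enzyme that modifies mitochondrial tRNA, was at 3.70, 2.89 and 2.68 FPKM in KO and 0.0422, 0.0249 and 0.07 FPKM in WT. The groups were far apart (1.96 ± 0.16, limma adjusted p = 0.0503, just over the threshold). The protein-coding Cdk5rap1 sum was higher in KO as well, at 12.96, 14.1 and 15.7 FPKM against 6.79, 6.72 and 6.99 FPKM. The member's share of the gene was 19.9%, 16.4% and 14.3% in KO and 0.594%, 0.366% and 0.985% in WT, yet the usage difference of 1.00 had a limma adjusted p of 0.639. Its level passed in limma without a mean trend in the variance (adjusted p = 0.0234) and, in an alternative added after seeing the data, with length and GC trends removed (adjusted p = 0.0452). Over all settings tried its adjusted p ranged from 0.0234 to 0.524.

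Higher in KO without passing were also members of Slc39a7, Sft2d1, Rpl10a and Pak1ip1. The Slc39a7 member, of a zinc transporter of the secretory pathway, was at 18.7, 20.1 and 21.1 FPKM in KO and 14.6, 14.2 and 15.9 FPKM in WT (0.40 ± 0.09, limma adjusted p = 0.569). The Sft2d1 member was at 1.38, 1.56 and 1.04 FPKM and 0.346, 0.351 and 0.157 FPKM. The Rpl10a member was at 23.4, 23.1 and 44.8 FPKM and 6.42, 1.87 and 10.6 FPKM, of a gene whose coding sum was 580 to 883 FPKM in KO against 717 to 881 FPKM in WT. Its share was 2.22%, 2.04% and 4.002% in KO and 0.553%, 0.162% and 0.848% in WT. The Pak1ip1 member took 22.2%, 19.3% and 17.6% of its gene in KO and 7.98%, 5.78% and 12.1% in WT.

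Lower in KO were members of 5 genes whose protein-coding sums had a mean no lower in KO. The Twf2, Hdac6, Aifm1 and Taf1c members reached 1 FPKM in the WT libraries only. The level rule thus kept these members through the group where they were high, and their p-values are not independent of that selection. The Twf2 member, of the actin-binding protein twinfilin 2, was at 0.326, 0.359 and 0.439 FPKM in KO and 1.85, 1.77 and 2.03 FPKM in WT (-1.07 ± 0.14, limma adjusted p = 0.142). It passed in limma without a mean trend (adjusted p = 0.0494), within a range of 0.0494 to 0.794 over the settings tried. Protein-coding Twf2 was at 34.0, 37.5 and 30.5 FPKM in KO and 32.8, 32.4 and 29.8 FPKM in WT. The Hdac6 member, of a cytoplasmic deacetylase that shares tubulin as a substrate with SIRT2, was at 0.132, 0.0786 and 0 FPKM in KO and 1.76, 2.09 and 1.33 FPKM in WT. That was 2.36%, 1.23% and 0% of the gene in KO and 23.1%, 32.7% and 19.9% in WT (usage -1.62, limma adjusted p = 0.295). The Aifm1 member, of a mitochondrial flavoprotein with a role in cell death, keeps intron 9 of 15 and was at 0.0121, 0.218 and 0.273 FPKM in KO and 2.44, 2.07 and 3.03 FPKM in WT.

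The Rab4b member, of a small GTPase of endosome recycling, was at 0.206, 0.267 and 1.14 FPKM in KO and 4.98, 4.40 and 4.12 FPKM in WT, from 19.5%, 20.5% and 17.3% of the gene in WT to 1.07%, 1.13% and 4.06% in KO (usage -2.43, limma adjusted p = 0.12). The Taf1c member, of a factor for RNA polymerase I, was at 0.166, 0.0862 and 0.265 FPKM in KO and 1.47, 1.43 and 1.38 FPKM in WT. Its coding sum was at 7.03, 8.37 and 5.96 FPKM in KO and 2.52, 4.06 and 3.81 FPKM in WT. Rab4b overlaps the longer gene Gm21983 on the same strand and Taf1c overlaps Dnaaf1 on the other. Because all of these levels are near 1 FPKM, the log2(FPKM + 1) scale understates their folds.

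**Figure D5:**
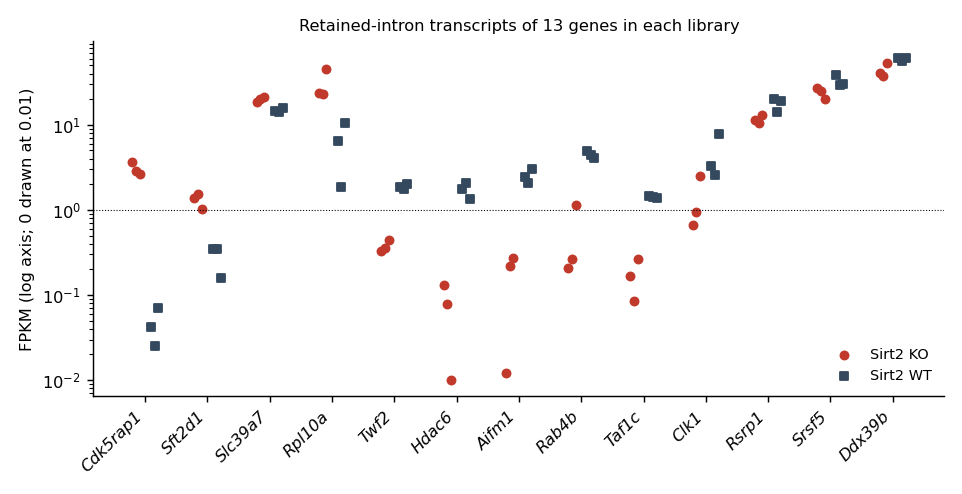
FPKM (y axis, log scale; a value of 0 is drawn at 0.01) of the named member of 13 genes in 3 KO libraries (circles) and 3 WT libraries (squares), with 1 FPKM dotted. The first 4 genes are higher and the other 9 lower in every KO library, and none passed the test at adjusted p under 0.05.

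The authors' deposited table gave more differences. Its q-value in the authors' deposited table was under 0.05 for 33 members, where the background over all 19184 transcripts was 1.78%. Of these, 10 were higher (background 1.06%) and 23 lower in KO (background 0.714%) in the authors' deposited table. The smallest q in the authors' deposited table was that of the Cdk5rap1 member, at 1.1e-22 with a ratio of KO to WT of 67.6. In the authors' deposited table Taf1c followed with a ratio of 0.121 and Twf2 with 0.199. Prim1 had a ratio of 0.562 (q = 0.00942) and a second Clk3 transcript 0.322 (q = 0.0129) in the authors' deposited table.

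Some members were abundant in some libraries and listed near 0 in others, whatever the group. The Ptbp1 member (ENSMUST00000165153), of a splicing repressor, was listed at 0, 0 and 191 FPKM in KO and at 181, 167 and 0 FPKM in WT. The protein-coding Ptbp1 sum was low where the member was high, at 294, 315 and 85.0 FPKM and 143, 150 and 290 FPKM. The member differs from protein-coding exons by 79 bases only. A Snrnp70 member, of a U1 protein, was at 0, 0 and 13.3 FPKM in KO and 15.8, 15.9 and 0.0274 FPKM in WT. Of the 297 members that reached 10 FPKM in a library, 9 (3.03%) were under 0.1 FPKM in another, as were 3.24% of such protein-coding transcripts of the same genes. The within-group SD of log2(FPKM + 1) had a median of 0.31 for members and 0.31 for protein-coding transcripts of the same genes, which lie at higher levels. At like levels members varied less, with 0.28 against 0.44 at a mean of 1 to 2 FPKM and 0.33 against 0.51 at 2 to 4 FPKM. At 4 to 8 FPKM it was 0.33 against 0.44, and at 8 to 16 FPKM 0.35 against 0.36.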

How the data were processed

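RNA was measured by bulk sequencing in 6 libraries, grouped by the genotype in their titles. The authors deposited tables of genes and of transcripts in FPKM with 1 column per library, per the file headers, together with a ratio of KO to WT, its log2, a p-value and a q-value per feature. The tool behind these tests was not stated in any label or header used here. Per the submitters' processing notes, cutadapt, FastQC, HISAT2, StringTie, DESeq2 and edgeR were used, with no versions, and the build was mm9. However, of 73430 transcript identifiers found in GENCODE M21, 73203 had identical positions and strand in that GRCm38 annotation, which is the build used for coordinates. FPKM are estimates that divide shared reads among the transcripts of a gene, so a member's level depends on that division. The authors' transcript values of a gene do not add up to their gene value, so shares use the sum over transcripts.

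Transcripts of every type at 1 FPKM or more in at least 3 libraries were fitted together with limma 3.58.1 in R 4.3.3 on log2(FPKM + 1), with a mean trend and Benjamini-Hochberg adjustment over all of them, and called at adjusted p under 0.05. Usage is the transcript's log2(FPKM + 1) minus that of the summed other protein-coding FPKM of its gene. In simulated data with the spread of these libraries, the level fit on 19184 transcripts called 24% of the transcripts changed by 1, 70% of those changed by 2 and 76% of those changed by 4 on the log2 scale. The usage fit on 11105 transcripts called 2% at 1, 24% at 2 and 70% at 4, so its lack of calls says little about changes of 1. In genes without a changed transcript, the level fit made 7 calls and the usage fit 15. Introns are gaps of 30 bases or more between exons of protein-coding transcripts of the same gene in GENCODE M21, and an intron is retained where it lies wholly inside an exon of a member. An in-frame stop is read from the frame of the upstream coding exon.

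The members, the gene lists and the union of the 4 splicing lists were chosen with earlier results of these data known. Named are the 8 members of highest mean FPKM, in each fit the 4 of smallest p in each direction, the 6 of highest share among genes with coding transcripts at 1 FPKM, up to 4 of highest mean in each list, Sirt2 transcripts, and the 3 members on either side of the level rule. Loci without a gene name were only counted. A few members that this rule names are not reported here. Alternatives changed the scaling, the filter, the pseudocount (0.1), the variance model, the threshold (0.01), the denominator, a replicate block and each library left out.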

Additional observations from a re-analysis of the deposited data

How the results depend on the processing

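Members followed over the settings were those of Cdk5rap1, Twf2, Slc39a7, Aifm1, Rab4b, Sft2d1, Rpl10a, Hdac6, Taf1c and Pak1ip1. Their differences between KO and WT kept their sign under each setting in which the member was tested. Other named members were not followed in this way. The count of calls changed under 2 settings. The count of members called at the level was 0 as reported, 2 without a mean trend (Cdk5rap1 higher, Twf2 lower) and 1 with length and GC trends removed, an alternative chosen after seeing the data (Cdk5rap1 higher). It was 0 under every other setting tried, which were common median scaling, the 3 other filters, a pseudocount of 0.1, adjusted p under 0.01 and each library left out (range 0 to 0). The Cdk5rap1 and Twf2 members fail the filters at 5 FPKM and at 1 FPKM in all 6 libraries. Neither could thus be called under those filters. Usage gave 0 calls under every setting tried. Fitting the replicate number as a block gave 0 calls at the level, with 108 members at an unadjusted p under 0.05 in limma against 159, and 0 in usage, with 48 against 72 and 31 of them lower against 55. Same-numbered libraries did not deviate together across transcripts (correlations 0.00267, 0.0202 and -0.0486). These values cannot tell whether the numbers stand for a shared animal, culture or day.

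The difference in the members' share of summed FPKM, -0.197 percentage points, was -0.304 for all annotated retained-intron transcripts, -0.602 over the summed FPKM of the members' genes and -1.60 as a median over genes. These are shares of different totals, and all are lower in KO. Leaving out 1 library at a time gave -0.268 to -0.144, and leaving out the 20 most abundant members, added after seeing the data, -0.191. Members at an unadjusted p under 0.05 numbered 96 without KO replicate 1, 91 without WT replicate 1 and 261 without KO replicate 3. For the 86 members of the splicing lists, 17 were lower at that p; leaving out KO replicate 1, KO replicate 2 or WT replicate 1 left 5, WT replicate 3 left 8, WT replicate 2 left 9, and KO replicate 3 gave 31. Their number below 0 stayed between 72 and 80 of 86 over the libraries left out. Because depth is unknown, the counting error of levels near 1 FPKM cannot be given, and 3 libraries a group limit what the fits can call.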
